A study of Mus musculus with 3264 samples.

Results

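The wells described here held single cells of a mouse leukemia cell line, picked from a mixture of 3 cell lines either after time-lapse imaging or at random without it. A well was kept where 5 genes of the leukemia line (Cd7, Cacna2d2, Capn3, Aass and S1pr4) made up at least 70% of the summed counts of 15 marker genes, of which the other 10 mark the T cell line (Bcl11b, Ccdc91, Skap1, Sp9 and Rora) and the hematopoietic progenitor cell (HPC) line (Plac8, Ifitm1, Mef2c, Cd34 and Tyrobp). This kept 99 of 330 random wells (30%) and 41.9% of the time-lapse wells, 38.9% of both sets together. The 4 random plates gave 26, 23, 28 and 22 kept wells. The 16 time-lapse plates gave 22, 37, 31, 26, 15, 17, 13, 23, 29, 28, 28, 24, 35, 36, 35 and 23 kept wells, from a mean of 63 wells listed a plate. The mixture had 1836 wells listed in all, and 0 of the kept wells repeated another's values. The wells were chosen by these measured values, so the 15 marker genes enter no comparison.

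All cells of the mixture were filled into 96-well plates and their RNA was counted per gene with a primer carrying molecular barcodes. The random wells (4 plates), the wells picked by cell type (4 plates, called target wells) and the time-lapse wells (16 plates) were all filled with ALPS, a robot that finds cells in microscope images and moves single ones into wells, and a further 2 plates came from cell sorting by fluorescence (FACS). The labels give the cells as murine leukemia, T and hematopoietic progenitor cell lines, with no strain, treatment, line name or culture, and the length of the imaging is not given in the sources used here. Each well is 1 cell and no culture or day is named, so each group counts as 1 sample and no test was run. Every plate carried 1 way of picking, so the way of picking and anything else that differed between sets of plates cannot be told apart. Levels are counts per 1e+06 counts (CPM) of the summed counts of the kept wells of a plate, and differences are between means over plates of log2 (CPM + 1), with the spread over plates as a technical spread.

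Lymphoid cells hold much of their response to the surroundings in short-lived transcripts. Nfkbia encodes an inhibitor of NF-kB that NF-kB itself induces, Hif1 switches on genes such as Vegfa when oxygen is low, and Nrf2 switches on glutathione synthesis under oxidative stress. Cd69 marks recently activated lymphocytes, Txnip and Arrdc3 are related arrestin-like proteins that respond to glucose, and actin and tubulin transcripts are lowered when free actin or tubulin subunits are in excess.

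The marker values that chose the wells can be given as a description only. At the threshold, the last wells inside had 70% (7 leukemia, 0 T and 3 HPC counts) and 72.6% of marker counts in the leukemia genes, and the first wells outside had 68.2% and 59.2%. Between 70% and 95% lay 21 random and 84 time-lapse wells, and 51.5% and 50% of the kept wells had all their marker counts in leukemia genes. Cd7, a surface protein of T and natural killer cells, was at 376.4 CPM in random and 265.3 CPM in time-lapse wells, and Cacna2d2, a calcium channel subunit, at 247.5 and 382.3 CPM, so the rule's leading genes differed in opposite directions. The same rule took in all target wells labelled leukemia and 2 labelled HPC. In the FACS plates it took in 63 wells, of which 23 were labelled leukemia, so the FACS labels went against the markers and FACS values below are those of wells chosen by marker. The label of the line was further checked on 37 genes that were at least 8-fold higher in the labelled leukemia target wells than in both other lines and that the rule had not used. Their summed level was 5313 to 5841 CPM on the random plates and 4550 to 6129 CPM on the time-lapse plates. In T and HPC wells of the random plates it was 112.9 to 130.9 and 114.4 to 161.3 CPM. In T and HPC wells of the time-lapse plates it was 227.6 to 456.6 and 98.3 to 660.5 CPM, so the sum reached higher values there. Of other cell types, 6 of 8 B cell markers, 6 of 10 erythroid and platelet markers and 6 of 8 fibroblast and endothelial markers were at 0 in all random leukemia wells (6, 4 and 5 in time-lapse wells), and their sums stayed at or under 10.9 CPM on every plate. The 10 markers of the T line summed to 289.8 to 437.99 CPM on random and 103.8 to 400 CPM on time-lapse plates (4112 to 4320 and 1764 to 4666 CPM in T wells), and 10 of the HPC line to 66.6 to 147.7 and 20.6 to 98.9 CPM (1627 to 2190 and 1224.8 to 2459 CPM in HPC wells). Of the T line markers 2 (Ly6a and Chchd10) were at 0 in all random leukemia wells and 1 (Thy1) in all time-lapse leukemia wells. Of the HPC line markers 6 were at 0 in random and 2 in time-lapse leukemia wells, Hoxa9 and Ms4a3 in both sets. More foreign markers thus had a count in the time-lapse set, which held more wells. Both foreign marker sums in leukemia wells nevertheless reached lower values on the time-lapse plates, and their part in the differences below was not tested.

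Leukemia wells made up 30% of random wells (exact Clopper-Pearson 95% interval 25.1% to 35.3%, counting error only, 25.3% to 34.7% by plate) and 41.9% of time-lapse wells (38.8% to 44.98%, 24.1% to 54.5% by plate). The random plates lay within the range of the time-lapse plates. Depth was alike, with a median of 37303 counts per random well (17803 to 60114) and 38248 per time-lapse well (10845 to 86284), over 22 to 28 and 13 to 37 wells a plate. Thinned to 10000 counts, wells had a median of 3174 and 3078.5 genes. Rn45s, the ribosomal RNA precursor, took 8.31% to 10.9% of the counts on random plates, 9.49% to 12.8% on target plates, 5.48% to 6.71% on FACS plates and 8.96% to 17.1% on time-lapse plates, so it was higher on 13 of 16 time-lapse plates than on every random plate. A plate's log profile correlated with the mean of the other plates of its group at 0.971 to 0.978 (random) and 0.926 to 0.984 (time-lapse, lowest for plate 10), as a description.

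In the leukemia wells, genes such as Nfkbia, Adm, Vegfa, Gclc, Slc38a2 and Neat1 were higher after time-lapse, and genes such as Cd69, Txnip, Pfn1 and Rpph1 were lower. By list, actin and tubulin genes lay lower and the nuclear and structural noncoding RNA list had calls in both directions. Of 7701 genes measured (at least 10 CPM in the mean of 1 group), 68 (0.883%) were higher and 78 (1.01%) lower, 1.9% in all, where a gene is called if it differed at least 2-fold and at least 14 of 16 time-lapse plates lay beyond every random plate. Among the 78, 6 predicted genes held identical values on every plate. At 2-fold with no plate overlapping, 0.909% of the genes stood apart, 37 higher (0.48%) and 33 lower (0.429%). With no overlap at any size of difference it was 4.39%, with 1.6% higher and 2.79% lower. The split depended on scaling: with Rn45s left out of the total it was 87 higher and 69 lower, and by the median of ratios 83 and 57. The median of all measured genes was -0.11, and -0.02 by the median of ratios, and the differences below are to be read against that shift. Between the random and target leukemia wells, neither of which had been imaged over time, 12 genes were higher (0.158%) and 2 lower (0.0264%) of 7580 (0.185% in all) at 2-fold with no overlap of the 4 and 4 plates. With no overlap at any size of difference the share was 4.38% between random and target. That is alike the 4.39% above, though 4 plates clear 4 more easily than 16 do. The SD of the differences over genes was 0.44 between time-lapse and random and 0.26 between random and target.

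**Figure D1:**
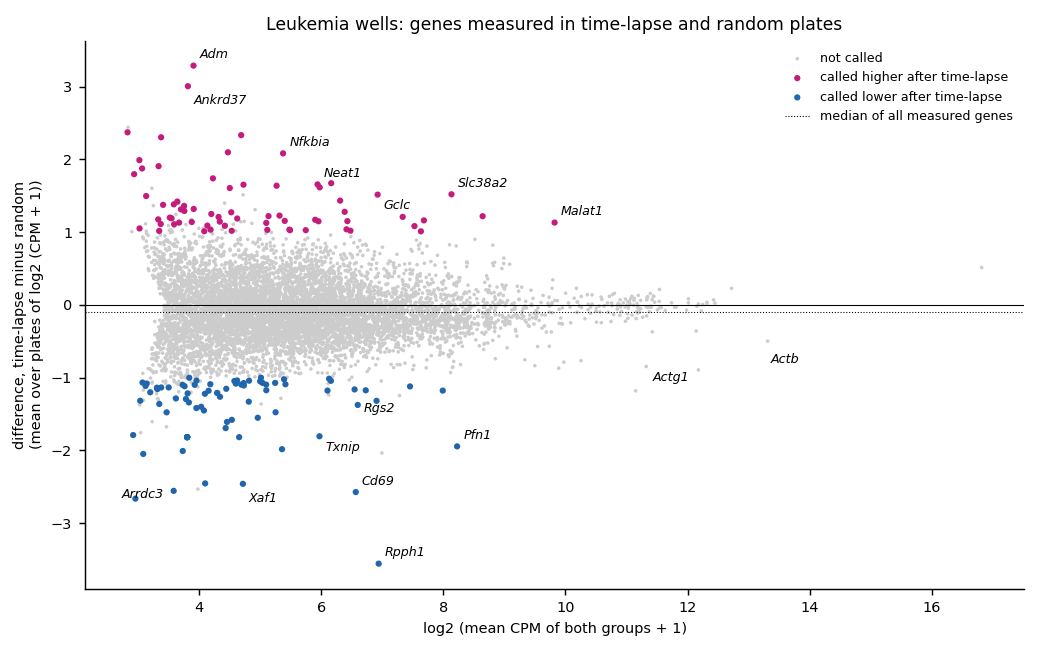
Each point is 1 of the 7701 genes measured in leukemia wells, with its mean level (log2 of CPM + 1) across and its difference between time-lapse and random plates (log2) up. The 68 genes called higher (pink) and 78 called lower (blue) lie around a median of -0.11 (dotted line), from Adm at the top to Rpph1 at the bottom.

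Nfkbia (chr12:55489410-55492647), the inhibitor that NF-kB induces in its own feedback, showed the largest difference among the named higher genes at 50 CPM or more. It stood at 10.3, 11.2, 13.98 and 12.2 CPM on the random plates and at 16.9 to 216.2 CPM on the time-lapse plates, with a median of 55.2 CPM. All 16 time-lapse plates were above all 4 random plates, by 2.08 on the log2 scale (4.23-fold, SD over plates 1.06 for time-lapse and 0.17 for random). The target plates, at 15.7 to 29.03 CPM, reached into the time-lapse range, with target plate 3 below it. The FACS plates, at 49.1 and 19.2 CPM, lay within it. Against the target plates the difference was 1.27 with 75% of time-lapse plates beyond all of them. Of the 7 measured genes of the NF-kB list, 1 was called and 6 lay above 0, with a median of 0.14. The other 6 ran from -0.12 (Nfkb1) to 0.66 (Nfkb2), both precursors of NF-kB subunits, with Rela, a further subunit, at 0.14.

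The hypoxia list held the 2 largest differences among the genes called higher, Adm and Ankrd37. Of its 13 measured members 3 were called higher and 0 lower, and all 3 are known targets of Hif1. Adm encodes the vasodilator peptide adrenomedullin, Ankrd37 an ankyrin repeat protein and Vegfa the main growth factor for blood vessels. The bases before their starts are shown because ACGTGC (either strand), a form of the site that Hif1 binds, could be searched in them. The bases are taken from RefSeq (GRCm38.p6), 5′ to 3′ on the strand of the gene with a match in capitals. They are Adm, chr7:110627407-110627656 (+), Ankrd37, chr8:45999851-46000100 (-), which lies inside the gene's annotated span, and Vegfa, chr17:46032378-46032627 (-), the first of 2 starts listed.
Adm: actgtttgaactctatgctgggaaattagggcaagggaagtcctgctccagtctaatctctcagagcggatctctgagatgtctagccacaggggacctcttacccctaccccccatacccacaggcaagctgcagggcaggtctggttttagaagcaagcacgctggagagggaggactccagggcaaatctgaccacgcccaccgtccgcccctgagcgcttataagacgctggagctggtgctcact
Ankrd37: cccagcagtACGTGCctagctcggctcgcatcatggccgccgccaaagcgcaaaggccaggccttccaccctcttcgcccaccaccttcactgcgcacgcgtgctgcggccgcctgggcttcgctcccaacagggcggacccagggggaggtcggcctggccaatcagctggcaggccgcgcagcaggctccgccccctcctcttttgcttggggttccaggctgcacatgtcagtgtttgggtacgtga
Vegfa: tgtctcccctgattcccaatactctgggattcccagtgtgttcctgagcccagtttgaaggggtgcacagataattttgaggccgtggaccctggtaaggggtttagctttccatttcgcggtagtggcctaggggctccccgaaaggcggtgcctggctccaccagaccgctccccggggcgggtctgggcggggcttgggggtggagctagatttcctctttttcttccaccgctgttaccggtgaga
The 250 bases before the Ankrd37 start held 1 match, near the far end of the window, and those of Adm and Vegfa (both starts) held 0. Of 32851 promoters of that length in the table, 1615 (4.92%) held a match, as did 6 of the 11 measured hypoxia genes with a promoter there. Other forms of the site, such as its shorter core, were not searched, so 0 matches does not mean that the site is absent. A match is letters only, and no binding was measured.

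Adm was close to absent from the random leukemia wells, with 1.03, 2.48, 0.932 and 0 CPM and 4 counts in all. On the time-lapse plates it stood at 3.38 to 117.04 CPM (median 20.5, 475.5 counts), so that all 16 plates were above the random plates, by 3.29 on the log2 (CPM + 1) scale. The pooled counts gave a ratio of 25.4 (9.87 to 93.7, counting error only). Ankrd37 stood at 2.07, 0, 4.66 and 0 CPM on random plates and at 2.43 to 109.04 CPM (median 14.9) on time-lapse plates. There, 14 of 16 plates were above every random plate, with a difference of 3.005 and a pooled ratio of 12.8 (6.15 to 32.01), with 7 counts in all random wells. For Vegfa the random plates lay between 18.6 and 24.8 CPM and the time-lapse plates between 32.1 and 95.9 CPM (median 49.6), without overlap, a difference of 1.23 (2.34-fold). Target plate 2 reached 40.6 CPM of Vegfa and 4.84 CPM of Adm, each within the time-lapse range.

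The rest of the hypoxia list did not follow as a group. The list's median was 0.02 against -0.11 for all genes, and 0.11 by the median of ratios. Kdm3a, a histone demethylase, was at 0.83 with 15 of 16 plates beyond, and Ddit4, an inhibitor of mTORC1, at 1.40 with 13 of 16, below the 14 needed. On the other side of 0 lay Pdk1, which holds pyruvate back from the mitochondria, at -0.55 and Higd1a at -0.42. Bhlhe40, a repressor, was measured at 0 CPM on 3 random plates and 7.65 CPM on the median time-lapse plate, under the minimum of 10 CPM. No glycolysis gene of 17 was called in either direction, and their median was -0.17.

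Gclc, the catalytic subunit of the enzyme that limits glutathione synthesis, stood at 50.7, 78.2, 60.6 and 46.9 CPM on the random plates. The time-lapse plates ran from 37.6 to 292.7 CPM (median 177.8), with 15 of 16 above every random plate and 1 below all of them, a difference of 1.51 (2.86-fold). Sqstm1, the autophagy receptor p62, stood at 79.4 to 106.1 CPM on random plates and 108.04 to 462.1 CPM on time-lapse plates (median 200.6), without overlap, by 1.21. The target plates, at 56.6 to 161.05 CPM, and the FACS plates, at 119.7 and 109.5 CPM, reached into the time-lapse range. Against the target plates the difference of Sqstm1 was 1.13 and its call was lost. Gclc and Sqstm1 were the 2 genes called of 21 in the Nrf2 and glutathione list, whose median was -0.18. The other glutathione and redox enzymes of the list were not called, for example Gclm, the partner subunit of Gclc, at 0.65, Txnrd1, a thioredoxin reductase, at -0.05 and Gpx1, a glutathione peroxidase, at -0.60. Osgin1, a stress-induced growth inhibitor, was at 1.51 with 13 of 16 plates beyond, below the 14 needed. Mafg, a small Maf protein that pairs with Nrf2 on DNA, stood at 31.6 to 37.4 CPM on random and 41.3 to 103.8 CPM on time-lapse plates, by 1.17. Nfe2l2, which encodes Nrf2 itself and was picked out after its values were seen, stood at 30.5 to 43.4 and 47.7 to 120 CPM, by 1.15. Both were without overlap between random and time-lapse plates. The target plates of Mafg, at 28.7 to 53.6 CPM, reached into its time-lapse range.

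Among transporters, Slc38a2, which takes up small neutral amino acids with sodium, stood at 134.4, 150, 126.8 and 135.3 CPM on the random plates. It stood at 248.6 to 1088.4 CPM (median 396.6) on the time-lapse plates, all of them above, by 1.52 (2.87-fold). It was the 1 gene called of 12 in the amino acid and nucleotide transporter list, whose median was 0.33. In that list the lysine and arginine carrier Slc7a6, at 0.59, also had all 16 plates beyond the random plates. Slc5a3, the carrier of myo-inositol, an osmolyte, was picked out after its values were seen. It stood at 3.73 to 9.93 CPM on random and 15.4 to 85.03 CPM on time-lapse plates (median 37.3), without overlap, by 2.33. Flcn, a regulator of mTORC1 at the lysosome, was called at 1.14 with 14 of 16 plates beyond, from 4.96 to 15.5 CPM on random and 12.1 to 37.8 CPM on time-lapse plates. With Sqstm1 it made 2 called of 23 in the mTORC1 and lysosome list, whose median was -0.03.

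**Figure D2:**
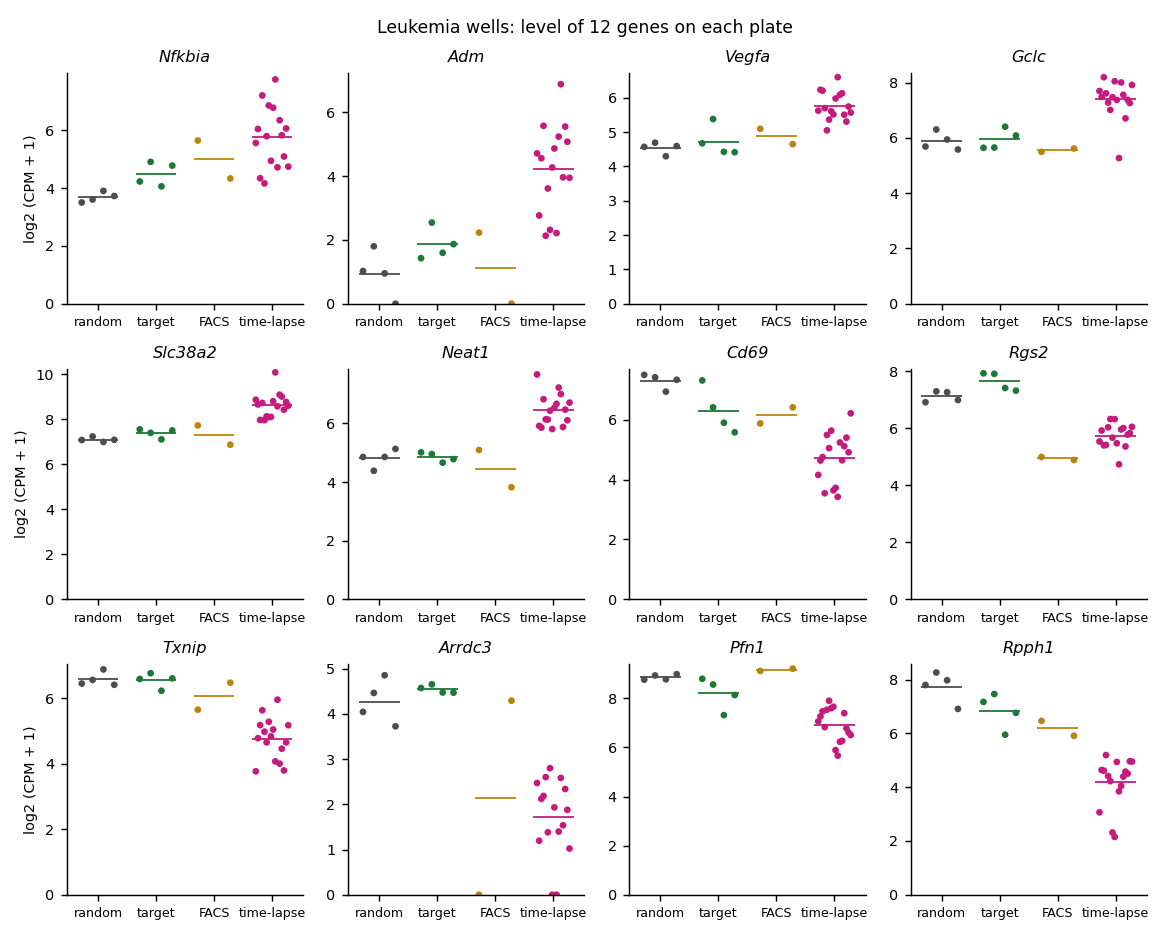
Level of 12 genes in leukemia wells, 1 point a plate, as log2 (CPM + 1), with a line at the mean of each set of plates (random 4, target 4, FACS 2, time-lapse 16). Nfkbia, Adm, Vegfa, Slc38a2 and Neat1 lie higher on every time-lapse plate than on every random plate and Gclc on 15 of 16, while Cd69, Rgs2, Txnip, Arrdc3, Pfn1 and Rpph1 lie lower on all 16.

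Neat1, Malat1 and Snhg12 were the higher noncoding RNAs named by the rule. Neat1, the scaffold of paraspeckles, stood at 27.9, 19.9, 27.96 and 33.998 CPM on random plates and at 55.01 to 202.9 CPM (median 86.5) on time-lapse plates, by 1.66 (3.15-fold). Malat1, an abundant RNA of nuclear speckles, stood at 525.5 to 635.3 CPM on random and 800 to 1740 CPM on time-lapse plates, by 1.13. Snhg12, the host of small nucleolar RNAs, stood at 24.1 to 32.6 and 53.8 to 184.6 CPM, by 1.61. None of these 3 overlapped between random and time-lapse plates, though Malat1 on the target plates, at 543.01 to 1113.2 CPM, reached into the time-lapse range. Snhg12 stood at 77.98 and 46.5 CPM on the FACS plates, the first of them within its time-lapse range. Of 13 measured members of the list of nuclear and structural noncoding RNA, 5 were called higher, the others being Kcnq1ot1, an imprinted antisense RNA, at 1.16 and the host gene Snhg3 at 1.03 (both outside the naming rule and chosen after their values were seen). The host genes Snhg1, at 0.21, and Snhg8, at 0.18, were not called, each with 8 of 16 plates beyond. The list's median was 0.60, and 0.69 with either other scaling. Its medians by plate, 0.27 to 0.89 on the time-lapse plates, lay above the -0.05 to 0.12 of the random plates. Rn45s, itself a member of the list, stood at 0.51. In the 3 time-lapse plates whose Rn45s share (8.96% to 10.7%) was within that of the random plates the list's median was 0.78. That was the value of Malat1, the middle member there, and is under 2-fold.

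In the same list 3 members lay below 0, and 2 of them, Rpph1 and Rnu11, were called lower. Rn4.5s, a small RNA, stood at 2102 to 4895 CPM on random plates and 469.3 to 2701 CPM on time-lapse plates, by -1.18 with 12 of 16 plates beyond, below the 14 needed. Rpph1 (chr14:50807449-50807767), the RNA of ribonuclease P, which trims transfer RNA precursors, had the largest difference of all measured genes. It stood at 221.2, 305.4, 250 and 118.99 CPM on the random plates and at 3.44 to 35.5 CPM (median 20.97) on the time-lapse plates, without overlap, by -3.56 (11.8-fold lower). The target plates, at 60.7 to 175.1 CPM, reached into the random range, and the FACS plates, at 87.2 and 59.1 CPM, lay below every random plate. All 6 of these stood above every time-lapse plate. Rnu11, which encodes the U11 RNA that recognises minor introns, stood at 6.20 to 28.6 CPM on random and 1.63 to 13.02 CPM on time-lapse plates, by -1.48 with 15 of 16 plates beyond.

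Besides Mafg, the 12 higher genes named by size at 50 CPM or more included Crebbp, Ash1l, Ankrd11 and Ankrd12, which encode nuclear proteins. They stand here side by side and are not a list that was counted. Crebbp, a histone acetyltransferase, stood at 15.5, 18.6, 15.8 and 17.7 CPM on random plates and at 35.5 to 120 CPM (median 50.01) on time-lapse plates, by 1.64 (3.11-fold). Ash1l, a histone methyltransferase, stood at 33.5 to 53.1 and 66.99 to 222.2 CPM, by 1.28. The ankyrin repeat proteins Ankrd11 and Ankrd12, which interact with nuclear receptor coactivators, differed by 1.22 and 1.43, from 184.9 to 270.6 and 25.8 to 55.8 CPM on random plates to 345.9 to 1079.7 and 75.5 to 154.1 CPM on time-lapse plates. None of these 4 overlapped. On the target plates Crebbp stood at 21.8 to 54.6 CPM, Ankrd11 at 225.2 to 447.2 CPM and Ash1l at 39.7 to 71.8 CPM, all reaching into the time-lapse range. Ankrd12, at 49.02 to 68.8 CPM there, did not, but its difference against target was 0.92, under 2-fold. Phf13, a reader of histone methylation picked out after its values were seen, stood at 1.24 to 19.04 CPM on random and 21.8 to 55.02 CPM on time-lapse plates, by 2.10. The list of DNA methylation and Polycomb genes had 0 of 20 called and a median of -0.05.

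Transcript length moved with the difference across all genes. In 5 bins of the longest annotated transcript, from the shortest to the longest, the median difference was -0.24, -0.18, -0.09, -0.06 and 0.05. Between random and target plates the same bins had medians of 0.09 to -0.01. The median longest transcript was 4636 bases for the genes called higher, 2724 for those called lower and 3385 for all. The part of length in any gene's difference was not tested.

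The lower genes named by size included Cd69, Rgs2, Cd27 and Nrp2, single genes that stand here side by side and not a list that was counted. Cd69 (chr6:129267325-129275436), the early activation antigen that holds lymphocytes in tissue, stood at 179.9, 170, 121.6 and 160.5 CPM on the random plates. On the time-lapse plates it stood at 9.72 to 73.2 CPM with a median of 27.5 CPM, all below the random plates, by -2.57 (5.96-fold lower). The target plates ran from 46.8 to 158.04 CPM and the FACS plates stood at 57.7 and 84.3 CPM, so Cd69 also varied among plates without imaging. Rgs2, which damps signalling of G protein-coupled receptors, stood at 118.9 to 155.1 CPM on random plates, 157.97 to 241.1 CPM on target plates and 25.5 to 78.7 CPM on time-lapse plates, by -1.38. It was as low in the FACS wells, at 30.7 and 28.5 CPM, as on the lowest time-lapse plates. Cd27, a costimulatory receptor of the TNF receptor family, stood at 126.8 to 159.1 CPM and 26.3 to 104.2 CPM, by -1.18. Nrp2, a receptor for semaphorins and vascular growth factors, stood at 50.3 to 80.7 CPM and 1.21 to 39.1 CPM, by -1.99 (SD over time-lapse plates 1.28). Neither Rgs2, Cd27 nor Nrp2 overlapped between random and time-lapse plates. The target plates reached into the time-lapse range for Cd27, at 80.3 to 146.6 CPM, and Nrp2, at 27.3 to 67.6 CPM. Against the target plates the calls of Cd27 and Nrp2 were lost.

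Klrd1, the CD94 receptor of natural killer cells, stood at 133.4, 160, 195.7 and 175.4 CPM on random plates and at 26.7 to 160.7 CPM (median 63.9) on time-lapse plates. The difference was -1.32 with 15 of 16 plates below, and Klrd1 was the 1 gene called of the 37 genes of the line described above, whose median was -0.17. All 4 measured members of the natural killer and cytotoxic list lay below 0, with a median of -0.81 (-0.72 by the median of ratios), and Cd160, at -0.82, was also lower on all 16 plates without reaching 2-fold. The T lineage list, in contrast, had 1 called (Cd27) of 16 and a median of 0.01, with Tcf7, a transcription factor of early T cells, at 0.01 and Gata3 at 0.11. Among 13 immediate early genes 0 were called, with a median of 0.03.

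Txnip, which restrains glucose uptake and binds thioredoxin, stood at 86.1, 93.1, 116.5 and 83.9 CPM on the random plates and at 12.6 to 60.9 CPM (median 26.97) on the time-lapse plates, by -1.81 (3.50-fold lower). Its relative Arrdc3, which takes receptors to endosomes, stood at 12.2 to 27.96 CPM on random plates and 0 to 5.96 CPM on time-lapse plates, by -2.56. Both were without overlap, and on target plates both were close to the random level, at 73.8 to 107.4 and 21.2 to 24.2 CPM. The 2 FACS plates stood at 49.1 and 87.6 CPM for Txnip and at 0 and 18.6 CPM for Arrdc3. For each gene 1 FACS plate thus lay within the time-lapse range. Txnip and Arrdc3 were the 2 genes called of 16 in the FoxO and quiescence list, whose median was -0.07. Other FoxO targets of that list were not called, such as Cdkn1b, an inhibitor of the cell cycle, at 0.35 and Klf2, a factor of resting lymphocytes, at -0.36.

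The actin cytoskeleton was lower as a list. All 32 measured members lay below 0, and 12 of them were below every random plate on all 16 time-lapse plates, where 2.79% of all genes were so. The list's median was -0.44 against -0.11 for all genes, and 2 members were called. With Rn45s left out all 32 stayed below 0, and by the median of ratios 31 did, Arpc1b standing at 0.02. The number without overlap was 8 with either scaling (1.92% and 1.68% of all genes), and the medians were -0.37 and -0.35. Pfn1 (chr11:70651850-70654644), profilin, which feeds actin subunits to growing filaments, stood at 432.7, 486.4, 436.2 and 504.9 CPM on the random plates and at 49.8 to 237.8 CPM (median 122.4) on the time-lapse plates, by -1.95 (3.85-fold lower). Its target plates ran from 158.3 to 443.3 CPM and the FACS plates stood at 553.5 and 590.3 CPM. Tpm1, a tropomyosin that wraps the filament, stood at 216.9 to 245.7 CPM and 58.3 to 156.9 CPM, by -1.12. The actins themselves moved less: Actb stood at 11175 to 12397 CPM on random and 4705 to 10387 CPM on time-lapse plates, by -0.50, and Actg1 at 3004 to 3447 and 745.7 to 2758 CPM, by -0.85, both without overlap. Tmsb4x, which binds free actin subunits, was at -0.89 with 14 of 16 plates below.

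Tubulin genes lay lower too. Of the 10 measured members of the tubulin list 9 were below 0 (8 with either other scaling), 5 of them without overlap under all 3 scalings, and 2 were called. The list's median was -0.77, -0.70 with Rn45s left out and -0.68 by the median of ratios. Tuba4a stood at 110.6, 147.03, 123.02 and 118.3 CPM on random plates and at 8.50 to 103.1 CPM (median 61.2) on time-lapse plates, by -1.16, and without time-lapse plate 10 the difference was -0.99. Tuba1c stood at 293.9 to 407.5 CPM and 64.9 to 241.2 CPM, by -1.18, but 71.1% of its positive values in single wells were not whole, as values split between near-identical genes would be, so its level is uncertain. The main subunits Tuba1b, at -0.77, and Tubb5, at -0.79, were lower on all 16 plates, whereas Stmn1, which binds free tubulin, stood at -0.03. In the 3 time-lapse plates with an Rn45s share within the random range, the medians were -0.51 for actin genes and -0.86 for tubulin genes. In those plates 26 of 32 and 7 of 10 members were below every random plate, against 13.8% of all genes, since 3 plates clear the random plates more easily than 16. Other lists also had many members below there, such as 19 of 52 respiratory chain and 14 of 31 proteasome genes. Against the target plates the medians were -0.32 and -0.60, and 2 of 32 actin and 3 of 10 tubulin list members were below every target plate, against 1.43% of all genes, so few actin genes stood clear of the target plates.

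**Figure D3:**
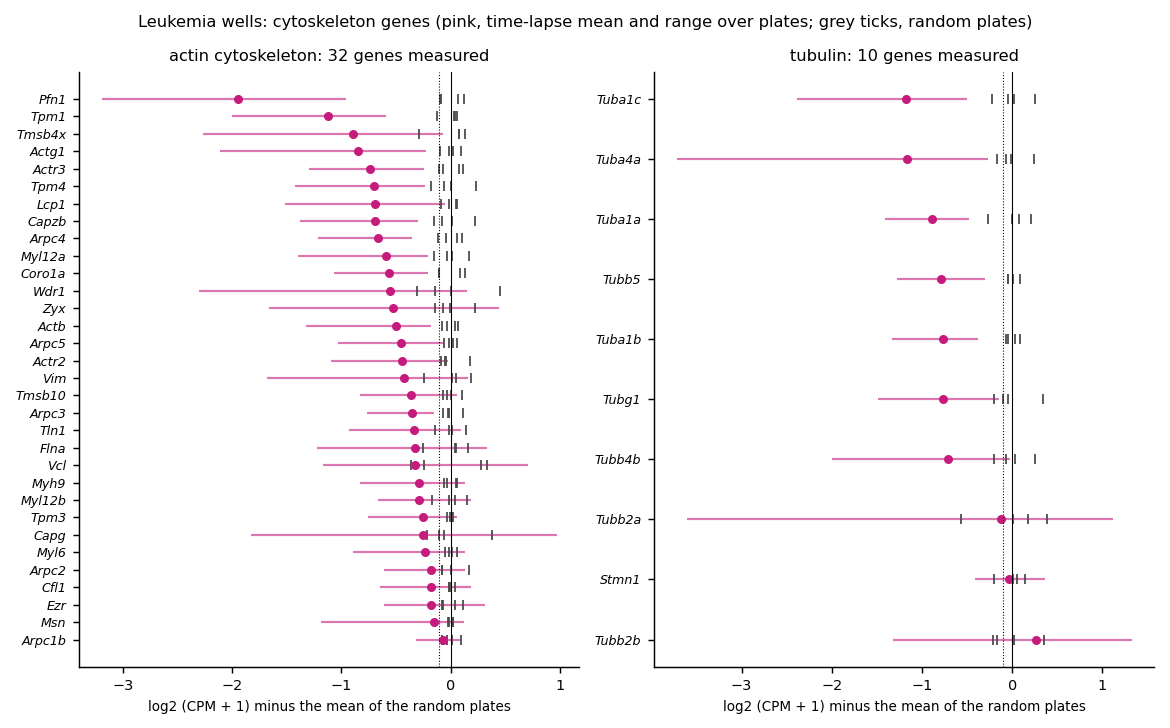
Genes of the actin cytoskeleton (32 measured) and tubulin (10 measured) lists in leukemia wells, as log2 (CPM + 1) minus the mean of the random plates. Dots are means and pink lines ranges over the 16 time-lapse plates, grey ticks the 4 random plates, and the dotted line the median of all genes, -0.11: every actin list dot lies below 0, Pfn1 at the far end, and 9 of 10 tubulin list dots do.

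Among interferon-stimulated genes, 2 of 11 measured were called lower and 0 higher, with a median of -0.44. Trim30a, a restraint on innate signalling, stood at 29.5, 27.9, 28.4 and 23.8 CPM on the random plates and at 6.31 to 18.4 CPM (median 11.3) on the time-lapse plates, by -1.26. Xaf1, a pro-apoptotic factor, stood at 32.6 to 56.5 and 1.69 to 27.2 CPM, by -2.46, with 61.1% of its positive values not whole, so that it too is uncertain, and a level of 14.3 to 190 CPM over the target plates. Irf1, itself a transcription factor of the response, lay on the other side, at 0.61. In the 3 plates with a low Rn45s share the list's median was -0.10.

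The remaining lower genes were spread over several roles. Slc25a24, a carrier of the inner mitochondrial membrane, stood at 80.2 to 106.7 CPM and 19.4 to 91.4 CPM, by -1.18 with 15 of 16 plates below. Tmem69, a membrane protein, stood at 29.2 to 75.5 CPM and 9.46 to 35.8 CPM, by -1.48 with 15 of 16 plates below. Its target plates, at 19.2 to 42.6 CPM, reached into the time-lapse range, and random and target plates themselves differed by 0.88. Hist1h1b, a linker histone of dividing cells, stood at 23.1 to 40.3 and 4.51 to 33.8 CPM, by -1.05, and Mxd3, an antagonist of Myc, at 16.3 to 37.2 and 1.21 to 18.6 CPM, by -1.22, each with 14 of 16 plates below. Chac1, which degrades glutathione and responds to amino acid shortage, stood at 8.16 to 14.9 and 1.21 to 13.8 CPM, by -1.20, while the integrated stress response list it belongs to had a median of 0.04 and 0 of 23 called higher. Chac1 rests on 42 counts in the random wells, and its difference was -0.37 in wells thinned to 10000 counts and -0.76 with 5 CPM added. Against the target plates the differences were under 2-fold, at -0.98 (Slc25a24), -0.60 (Tmem69), -0.87 (Hist1h1b), -0.56 (Mxd3) and -0.80 (Chac1).

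Lists of growth and housekeeping had medians nearer to the shift of all genes. Of the 39 gene lists 23 had no gene called, and their medians ran from -0.34 to 0.03. The DNA replication list had 0 of 42 called and a median of -0.17, the G2 and mitosis list 0 of 42 and -0.16, and the cytosolic ribosomal proteins 0 of 78 and -0.01. The sign of the last turned to 0.08 by the median of ratios. Small differences without overlap were more frequent in some of these lists than the 2.79% of all genes below every random plate. They were seen in 7 of 42 DNA replication genes, 6 of 52 respiratory chain genes and 5 of 40 splicing factors (4, 4 and 3 by the median of ratios, against 1.68% of all genes). The respiratory chain genes had 0 of 52 called, yet 49 of them lay below 0 and their median was -0.23 (46 and -0.14 by the median of ratios). The proteasome list was alike, with 0 of 31 called, 29 below 0 and a median of -0.23. The list of replication-dependent histones, which also held the variants H2afx (-0.36) and H2afz (-0.10), had a median of -0.58 with 1 of 11 called. Against the target plates the median of that list was -0.12.

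**Figure D4:**
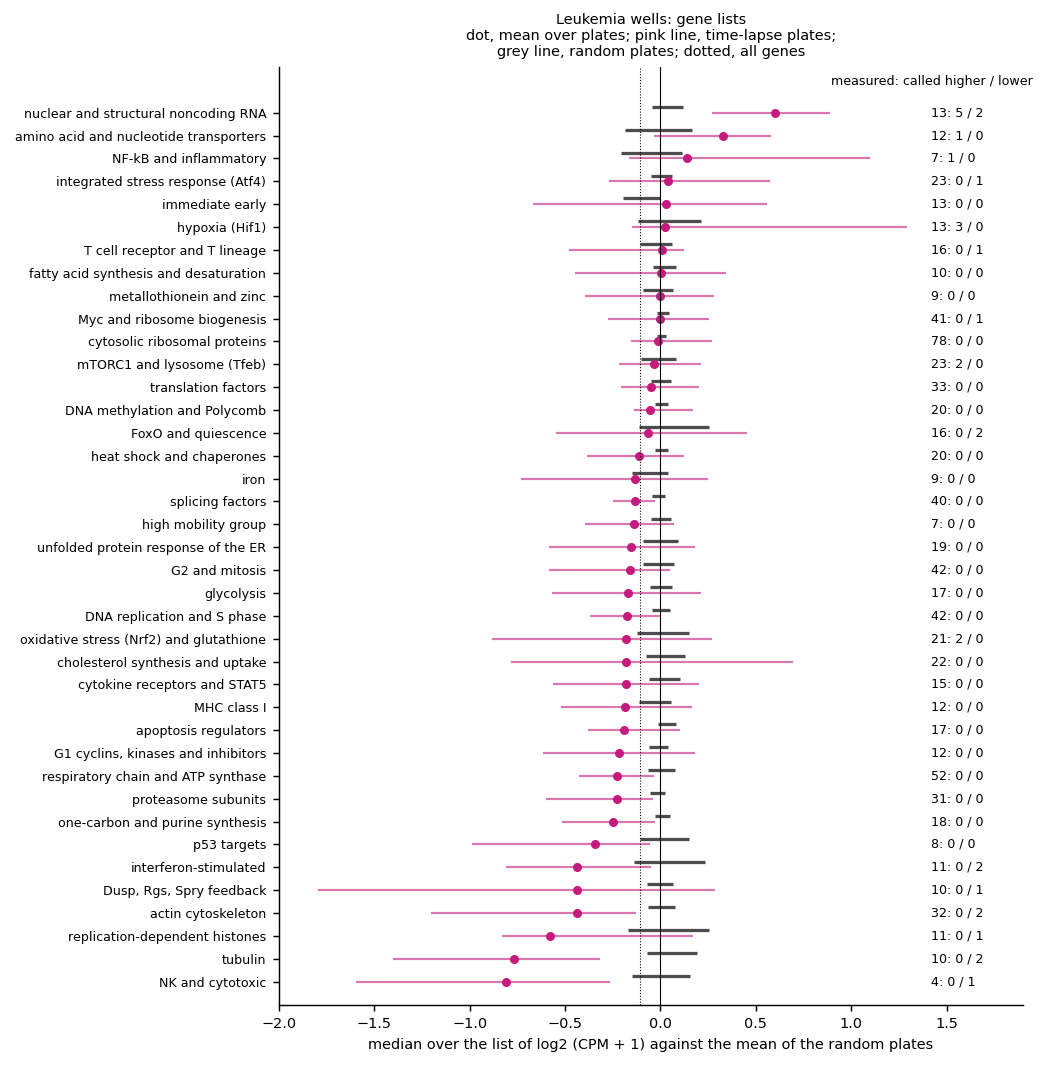
Gene lists in leukemia wells, ordered by the median difference (dots, log2). Pink lines give the range of the list's median over the 16 time-lapse plates, grey lines that over the 4 random plates, and the figures at the right the genes measured and those called higher and lower. The noncoding RNA list lies at 0.60 and the tubulin, actin and natural killer lists between -0.81 and -0.44, where the lines of time-lapse and random plates do not meet.

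Counted by well, the called genes differed in how many wells held any count of them. Wells were thinned to 10000 counts each, and intervals cover counting error only. Slc38a2 had a count in 71.7% of random and 96.4% of time-lapse wells (97.98% and 99.1% without thinning), and Neat1 in 20.2% and 49.5% (52.5% and 82.5%). Adm was held by few wells even after time-lapse: 16.4% (69 wells, against 2.02%, 2 wells, of random, and 30.1% and 4.04% without thinning), ranging from 5.41% to 50% over plates, and the 10% of time-lapse wells with the most counts held 76.6% of all its counts. For Nfkbia the shares were 16.2% and 37.2% (33.3% and 70.4% without thinning), and by plate 7.69% to 21.7% and 13.3% to 75%, which overlapped. On the lower side, Cd69 had a count in 73.7% of random and 21.1% of time-lapse wells (89.9% and 45.3% without thinning), Pfn1 in 96.97% and 66.4%, Rpph1 in 65.7% and 15.6%, and Txnip in 55.6% and 19.4%. A share of wells at this depth follows the level and does not separate fewer cells with the RNA from less RNA a cell. As a gauge of free RNA, Nrp2 had a count in 0.84% of random and 0.641% of time-lapse T wells, against 36.4% and 13.7% in leukemia wells. The median depth of those T wells was 44508 and 58795 counts. Klrd1 had a count in 3.60% and 6.11% of HPC wells (median depth 29584 and 33682 counts), against 63.6% and 34.6% in leukemia wells. Both genes were lower in the time-lapse leukemia wells. The 37 genes of the line summed to 227.6 to 456.6 CPM in time-lapse T wells, against 112.9 to 130.9 CPM in random T wells. The part of free RNA in this was not tested.

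**Figure D5:**
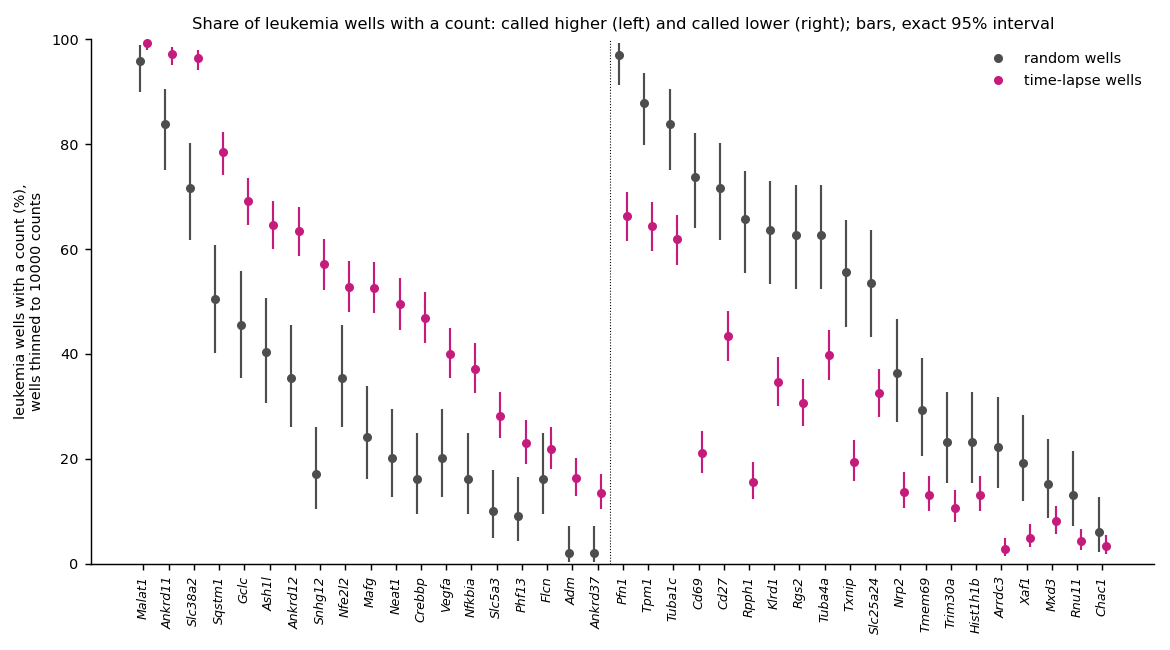
Share of leukemia wells with at least 1 count of each named gene after thinning every well to 10000 counts (%), in random (grey) and time-lapse (pink) wells, with exact 95% intervals for counting error. Genes called higher stand left of the dotted line and genes called lower right of it: Slc38a2 goes from 71.7% to 96.4% and Cd69 from 73.7% to 21.1%.

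The T and HPC wells of the same plates, taken by the same rule, give the other lines' values side by side. There the same contrast called 9.51% of 8180 genes higher and 10.3% lower in T wells (19.8% in all), and 4.38% of 8350 higher and 8.28% lower in HPC wells (12.7% in all), and the SD of the differences over genes was 1.04 and 0.77 against 0.44 in leukemia wells. Whether these spreads differ between lines was not tested. Of the 68 genes higher in leukemia wells, 58 were measured in T wells (29 higher, 1 lower) and 60 in HPC wells (28 higher, 0 lower). Of the 78 lower ones, 59 were measured in T wells (24 lower, 7 higher) and 53 in HPC wells (21 lower, 0 higher). The lines shared the pickings and plates, so these counts are not independent of each other. Neat1 differed by 2.17 in T and 1.23 in HPC wells, Gclc by 1.67 and 3.57, and Rpph1 by -2.97 and -2.53, each in the direction of the leukemia wells and called in both. Pfn1, at -1.81 and -2.09, was likewise called lower in both. Ankrd37 was called in T wells, at 3.22, and stood at -0.97 in HPC wells, while Crebbp was called in HPC wells, at 1.25, and stood at -0.32 in T wells. Of the 20 lower genes named for the leukemia wells 4 were called higher in T wells: Cd69 at 1.95, Rgs2 at 1.67, Txnip at 1.61 and Cd27 at 4.40 on the log2 (CPM + 1) scale, from 0.297 CPM in random T wells. In HPC wells these stood at -1.50, -1.44 (called lower), 0.38 and 0.36.

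Set against the target plates in place of the random plates, the time-lapse leukemia wells had 71 genes higher (0.929%) and 46 lower (0.602%) of 7641, 1.53% in all. The time-lapse wells are the same in both comparisons, so the values are given side by side. Neat1 was at 1.66 against random and 1.61 against target, Snhg12 at 1.61 and 1.65, Gclc at 1.51 and 1.45, Txnip at -1.81 and -1.78, Arrdc3 at -2.56 and -2.83, and Rgs2 at -1.38 and -1.90. Others were smaller against target: Crebbp at 1.64 and 0.74, Ankrd11 at 1.22 and 0.73, Malat1 at 1.13 and 0.58, and Pfn1 at -1.95 and -1.29. For these 4 the random and target plates themselves differed by -0.89, -0.49, -0.55 and 0.66.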

How the data were processed

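The deposited values are expected counts per gene and well, made by the authors before deposit and not scaled between wells. Per the submitters' processing notes, bcl2fastq, STAR and the mouse build mm10 were used. Their versions, the counter and the annotation are not stated in those notes as given. Of the positive values 5.31% were not whole (tolerance 1e-06), so tests made for whole counts were left out. The table holds 24781 genes (6392 at 0 in every well), 0 ERCC spike-in rows and 0 mitochondrially encoded genes. The PBMC wells were not used here.

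Counts of the kept wells were summed per plate (at least 5 wells), scaled to 1e+06 and compared as log2 (CPM + 1). With 1 sample a group there was no test. The members and gene lists were chosen with earlier results of these data known. Named genes were the 12 largest differences in each direction among called genes with at least 50 CPM and 30 counts in 1 group, predicted genes left out, plus up to 4 called members a list. Others named were chosen after their values were seen. Thinning used seed 1 and rounded counts. Gene coordinates are those of the GRCm38 annotation, the build that mm10 names. Alternatives are in the closing section. The functions were tested on simulated data. Analyses ran in python 3.11.15 with scipy 1.17.1, pandas 2.3.3, numpy 2.4.6 and, for plots, matplotlib 3.10.9.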

Additional observations from a re-analysis of the deposited data

Results flagged for a closer look

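Of the named genes, 4 had a plate that stood apart from the other plates of its set of 4, which chance does in about 1 of 20 sets. Each named gene had a random and a target set, so several would stand apart by chance alone. On 1 target plate Xaf1 stood at 190.2 CPM against 14.3 to 16.9 CPM on the other target plates. Among the random plates, Mxd3 stood at 37.2 CPM on plate 2 (16.3 to 18.6 on the others), Tpm1 at 216.9 CPM on plate 4 (241.9 to 245.7) and Malat1 at 635.3 CPM on plate 1 (525.5 to 537.2). Without random plate 2 the difference of Mxd3 was -0.96, under 2-fold, and its call was lost.

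Cd27 was lower after time-lapse on every plate of leukemia wells (-1.18) and higher in T wells (4.40, from 0.297 CPM in random T wells). The difference between the lines was not tested.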

How the results depend on the processing

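No paired analysis was possible because the labels' numbers only name wells and plates and no test was run. Genes called higher and lower (0.883% and 1.01% of those measured) were 0.493% and 0.48% with 5 CPM added in place of 1, 0.713% and 0.485% at 50 CPM or more, 3.16% and 5.05% at 1.5-fold, 0.0909% and 0.104% at 4-fold, and 0.48% and 0.429% with no overlap. Against the target plates 0.602% were lower. In the 3 time-lapse plates with a low Rn45s share, chosen after seeing the data, 1.67% and 2.11% were called, where all 3 plates had to lie beyond. Leaving out 1 plate at a time gave 0.819% to 1.09% higher and 0.962% to 1.75% lower, the 1.75% without random plate 3. There 84.2% to 98.6% of the calls were shared. Fewer were shared with 5 CPM added (51.4%), in thinned wells (41.1%) and against the target plates (35.6%). Of all calls, 1 changed sign in thinned wells and 3 did against target. Of the 39 named calls, 37 to 39 were kept without 1 plate, 28 in thinned wells and 18 against target, and none changed sign. Lost without 1 plate were Tuba4a (time-lapse plate 10), Flcn and Mxd3 (random plate 2) and Hist1h1b (random plate 1, and time-lapse plates 1, 2 and 10). Leukemia shares at a 95% cut were 23.6% (random) and 33.5% (time-lapse). The cause of these changes was not tested. Adm and Ankrd37 rest on 4 and 7 counts in the random wells.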
